A study of Mus musculus with 2 samples.

Results

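The gene set described here comprised the peroxisome proliferator-activated receptors (PPARs), genes known to respond to them and the enzymes of fatty acid oxidation in mouse intestine. Members were chosen by gene symbol. Of the 32 symbols, 31 had a row among the 17219 genes of the authors' deposited table, and Cyp4a14 was not analysed here. Intestinal crypts were embedded in Matrigel and cultured for 6 days as organoids, which hold stem cells together with their differentiated progeny, before RNA was extracted. The WT organoids carried floxed FABP4 alleles (FABP4fl/fl), and the F4KO organoids carried the same floxed alleles with a villin-Cre transgene (pvillinCreT), whose promoter drives recombination in intestinal epithelium. The design text calls the second genotype a knockout and its genotype label says FABP4 knockdown. Age, sex and the number of animals are not given in the labels. The table also holds a comparison that its headers name WTEpi-vs-F4KOEpi, called Epi here. The labels used here describe no Epi libraries, so their tissue, preparation and age are unknown.

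Each comparison set 1 F4KO library against 1 WT library. None of the differences below therefore has a replicate check, and the deposited false discovery rate (FDR) compares 2 libraries, not 2 genotypes. The authors' deposited table gives a log2 fold change, a p-value and an FDR for each gene and no level or count per library. Whole read numbers were recovered from the p-values for 13 members in the organoid comparison and 21 in the Epi comparison, and are called reads below. Read ratios are F4KO over WT, divided by the ratio of the library totals (0.992 for organoids and 0.813 for Epi), with exact 95% Clopper-Pearson intervals that cover counting error only. The headers put WT first and F4KO second, which was taken to mean F4KO over WT. Fabp4 itself had 1 read in the WT organoids and 0 in the F4KO organoids, and 1 and 4 reads in WTEpi and F4KOEpi, so it checks neither the genotype nor the direction. The organoid libraries also differed in Y-linked genes, with Eif2s3y at a log2 fold change of 9.53 in the authors' deposited table against -0.02 in Epi. In the organoids the genotype and this Y-linked difference cannot be told apart.

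PPARs are nuclear receptors that bind fatty acids and their derivatives and act on DNA as partners of the retinoid X receptor. PPAR alpha is best known for switching on mitochondrial and peroxisomal fatty acid oxidation during fasting in liver, and in the small intestine the same programme responds to dietary fat. Fatty acid binding proteins such as FABP4 carry fatty acids through the cytosol and can deliver them to these receptors. Long-chain fatty acids enter mitochondria as carnitine esters and are shortened there by dehydrogenases, hydratases and thiolases, while peroxisomes shorten very long chains and cytochromes of the Cyp4a family oxidise the far end of the chain.

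In the organoids the set differed little between the libraries of the genotypes. In Epi, Acot1, Pdk4, Cyp4a10, Angptl4, Acaa1b and Me1 were more than 2-fold lower in the F4KO library. Acaa2, Creb3l3, Pparg and Crot were between 1.5-fold and 2-fold lower. The other members, among them Cpt1a, Acadm and Pex11a, were within 1.5-fold. A member was called when it differed at least 1.5-fold with a deposited FDR of 0.001 or less. In the organoids, 0 of 31 members were called higher and 1 was called lower in the authors' deposited table, where 0.271% and 0.94% of all 15845 genes with a fold change were. In Epi, 0 of 31 were called higher and 10 (32.3%) were called lower in the authors' deposited table, where 20% and 2.51% of all 16336 genes were. The median log2 fold change of the members was 0.08 in organoids and -0.29 in Epi in the authors' deposited table, beside 0.00 and 0.38 over all genes. Because the median gene was higher in F4KOEpi, deposited Epi values understate how far a member lay below the other genes. Against that median, 30 of the 31 members lay lower in the authors' deposited table, with Ppard the exception. With the Epi fold changes centred on it, the members' median was -0.67 and 0 members were called higher and 18 lower in the authors' deposited table, where 11.6% and 6.89% of all genes were.

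The counts depended on the limits as follows. Without a fold limit, 3 members were higher (Acot1, Acot2 and Ucp2) and 3 lower (Vnn1, Crot and Eci2) in organoids in the authors' deposited table, where 3.09% and 4.7% of all genes were. In Epi that rule took 3 members as higher (Cpt1a, Ucp2 and Ppard) and 18 as lower in the authors' deposited table, where 30.6% and 7.92% of all genes were. With a limit of 2-fold, Vnn1 was still lower in organoids and 6 members were lower in Epi in the authors' deposited table, beside 0.24% and 0.979% of all genes. For Vnn1 the recovered organoid reads give a ratio of 0.506, just short of 2-fold. With 1.5-fold and a looser FDR limit of 0.05, the authors' deposited table gave the same counts as the main rule, 0 higher and 1 lower in organoids (0.757% and 2.08% of all genes) and 0 higher and 10 lower in Epi (25.9% and 3.12%).

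**Figure D1:**
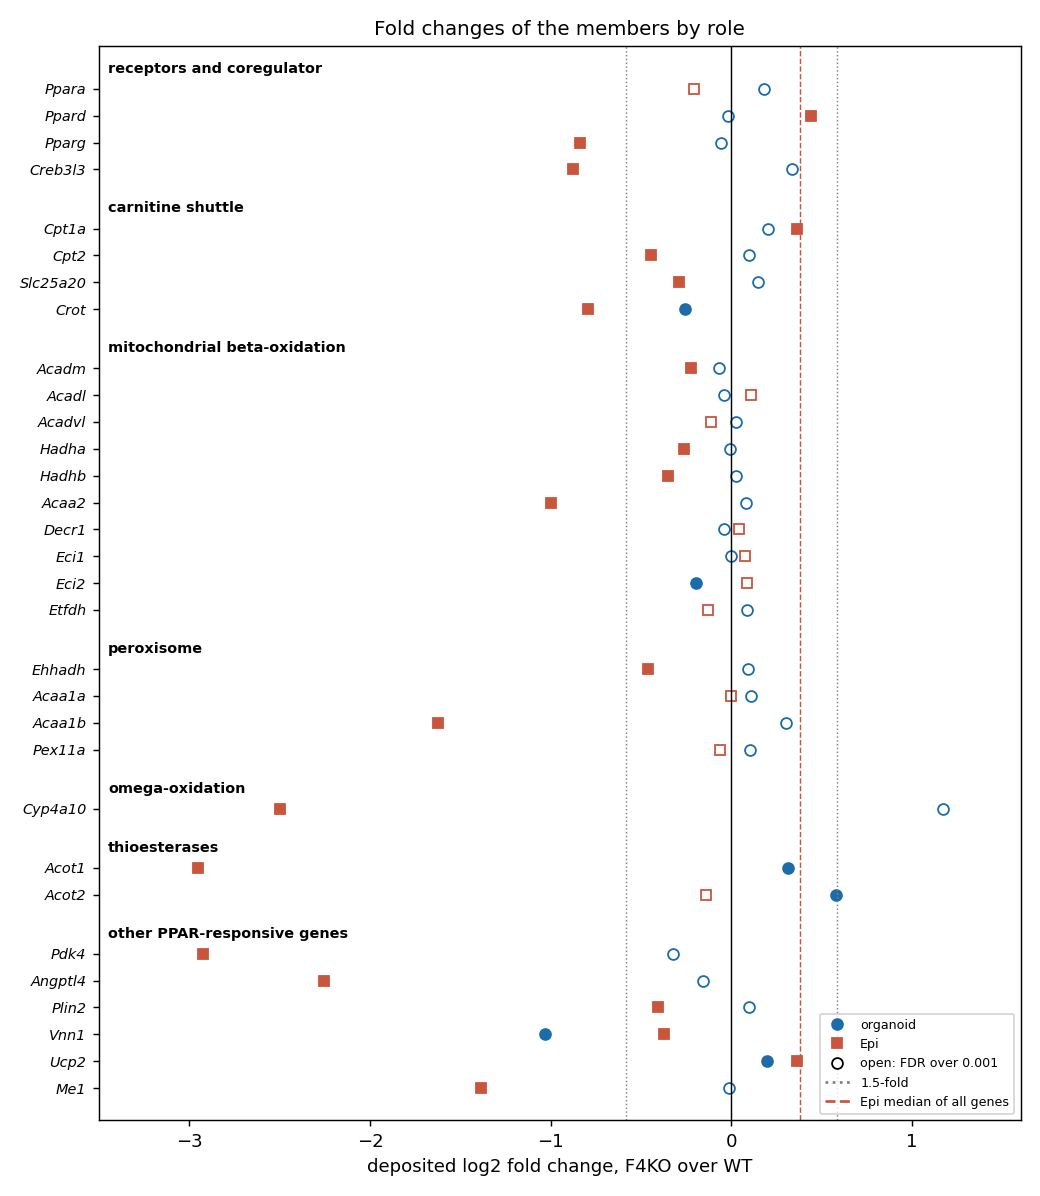
Deposited log2 fold change of each member on the horizontal axis, grouped by role, with organoid values as circles and Epi values as squares. Filled symbols have a deposited FDR of 0.001 or less, dotted lines mark 1.5-fold and the dashed line marks the Epi median of all genes at 0.38. Epi squares for Acot1, Pdk4, Cyp4a10 and Angptl4 lie below -2, whereas the organoid circles other than Cyp4a10, Vnn1 and Acot2 lie between -0.32 and 0.34.

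**Figure D2:**
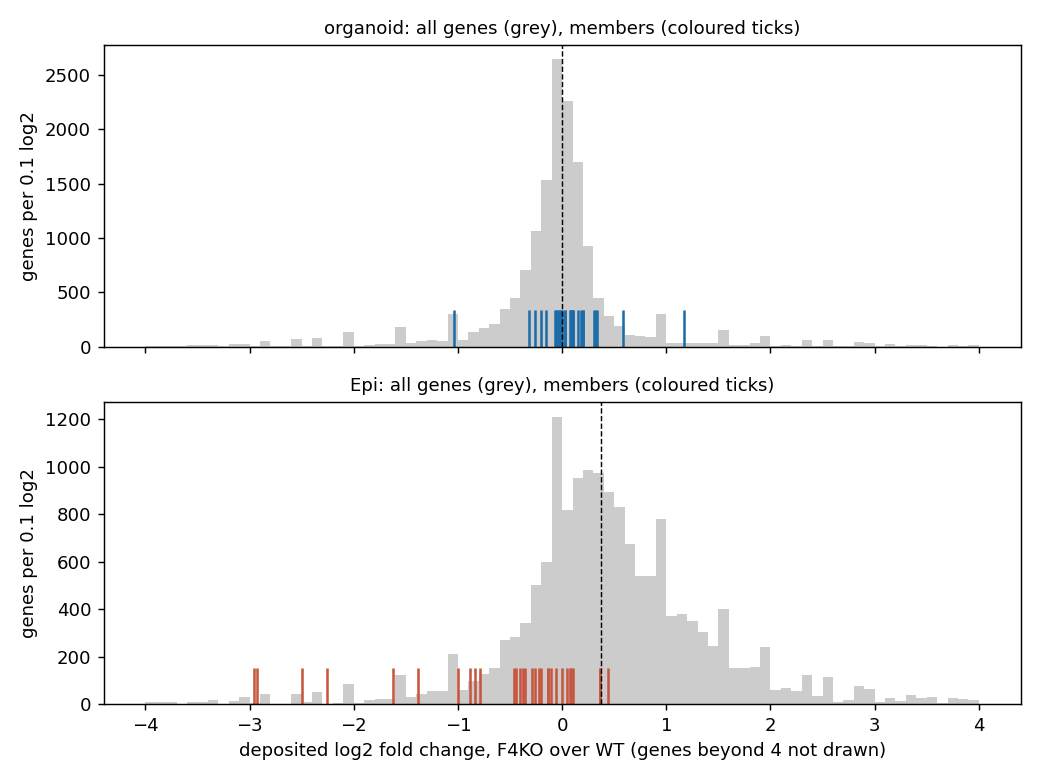
Histograms of the deposited log2 fold changes of all genes (grey, genes per 0.1 log2) in the organoid and the Epi comparison, with the members as coloured ticks and the median of all genes as a dashed line. The organoid ticks sit around the centre, and 30 of the 31 Epi ticks lie left of the median of all genes at 0.38.

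The receptors gave no common direction. Ppara, which encodes PPAR alpha, had 817 reads in WTEpi and 576 in F4KOEpi, a read ratio of 0.867 (0.778 to 0.966). The authors' deposited table gives it an Epi FDR of 0.018, above the limit. Pparg, whose product is best known from adipocytes and is also active in colonic epithelium, had 273 and 118 reads, a read ratio of 0.532 (0.425 to 0.662). Pparg was thus the receptor called lower in Epi. Ppard, the gene of the broadly expressed PPAR delta, was at 0.44 in Epi in the authors' deposited table (FDR 1.03e-50), which is 0.06 above the median of all genes. In the organoids the log2 fold changes of Ppara, Ppard and Pparg were 0.18, -0.02 and -0.06 in the authors' deposited table, and none passed the FDR limit. Of 5 Ppara transcripts with an organoid fold change, 2 were higher past that limit and 0 lower in the authors' deposited table of transcripts. These were NM_011144.6 at 1.83 (FDR 1.27e-10) and XM_030248421.1 at 4.17.

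Creb3l3 encodes a membrane-bound transcription factor that works with PPAR alpha on lipid genes in liver and intestine. It was called lower in Epi, at -0.88 where the authors' deposited table lists the FDR as 0, and its Epi reads were not recovered. In the organoids it had 278 WT and 349 F4KO reads, a read ratio of 1.27 (1.08 to 1.49). The authors' deposited table gives this difference an FDR of 0.0231, above the limit.

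PPARs bind direct repeats of AGGTCA with 1 base between the copies (DR1), and the promoters of the set were searched on both strands for AGGTCA, any base and AGGTCA again. RefSeq promoters (GRCm38.p6, 250 bases before to 50 after a transcription start) were at hand for 26 members. Angptl4, Cyp4a10, Cyp4a14, Acaa2, Vnn1 and Decr1 had none and were not searched. With at most 2 mismatches in the 12 fixed letters, 3 of 26 members (11.5%) held a match, against 4.4% of 27025 genes, and with at most 1 mismatch 0 of 26 did, against 0.644% of all genes. The windows of these 3 members are shown, chosen by the match alone. In Epi their log2 fold changes were -0.88 (Creb3l3), -0.41 (Plin2) and -0.29 (Slc25a20) in the authors' deposited table, where 24 of all 31 members were below 0. Pdk4, Acot1, Acaa1b and Me1, further below 0 there, were searched and held no match. A link between match and fold change was not tested. Capitals mark the match, which is a description of letters and not a binding site. The windows lie at chr10:81092542-81092841 on the minus strand, at chr4:86670010-86670309 on the minus strand and at chr9:108661886-108662185 on the plus strand. Each is written in its gene's direction, and the match in Plin2 is on the opposite strand.
Creb3l3: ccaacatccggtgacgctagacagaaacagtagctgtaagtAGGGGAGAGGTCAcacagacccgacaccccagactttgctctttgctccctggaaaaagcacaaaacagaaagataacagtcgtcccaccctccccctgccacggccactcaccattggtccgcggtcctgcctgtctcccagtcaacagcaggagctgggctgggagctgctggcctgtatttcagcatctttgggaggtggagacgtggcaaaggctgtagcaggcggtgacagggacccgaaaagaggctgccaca
Plin2: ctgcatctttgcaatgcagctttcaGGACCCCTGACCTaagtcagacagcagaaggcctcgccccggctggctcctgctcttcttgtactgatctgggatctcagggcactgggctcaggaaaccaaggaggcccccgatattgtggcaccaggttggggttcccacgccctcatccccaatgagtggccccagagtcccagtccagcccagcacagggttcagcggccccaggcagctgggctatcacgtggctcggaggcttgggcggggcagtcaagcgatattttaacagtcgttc
Slc25a20: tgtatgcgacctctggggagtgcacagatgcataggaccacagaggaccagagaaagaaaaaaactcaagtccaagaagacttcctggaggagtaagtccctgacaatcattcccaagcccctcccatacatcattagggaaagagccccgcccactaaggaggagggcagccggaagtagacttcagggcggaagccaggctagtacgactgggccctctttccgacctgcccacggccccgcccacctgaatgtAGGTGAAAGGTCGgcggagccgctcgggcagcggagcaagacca

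Among the other PPAR-responsive genes, Pdk4 and Angptl4 were the furthest below WT in Epi. Pdk4 (gene ID 27273, chromosome 6, 5483351 to 5496278, RefSeq on GRCm38.p6) encodes the kinase that shuts off pyruvate dehydrogenase when fatty acids are burned. It had 623 reads in WTEpi and 66 in F4KOEpi, a read ratio of 0.130 (0.0996 to 0.168). In the organoids 23 read pairs fit its p-value, of which 11 WT and 8 F4KO reads was the pair kept, so its organoid depth is uncertain. The organoid log2 fold change was -0.32 in the authors' deposited table (FDR 0.715). Angptl4 (gene ID 57875, chromosome 17, 33774900 to 33781575) encodes a secreted inhibitor of lipoprotein lipase. Its reads were 2156 in WTEpi and 367 in F4KOEpi, a ratio of 0.209 (0.187 to 0.234), and 697 and 621 in the WT and F4KO organoids, a ratio of 0.898 (0.805 to 1.0). Angptl4 was thus well covered in the organoids, and there the libraries differed by far less than in Epi.

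The genes Plin2, Vnn1, Ucp2 and Me1 did not share a pattern. Me1, the cytosolic malic enzyme that supplies NADPH, had 682 reads in WTEpi and 210 in F4KOEpi, a ratio of 0.379 (0.323 to 0.443), and stood at -0.01 in the organoids in the authors' deposited table. Vnn1, a pantetheinase on the epithelial surface, was the 1 member called in the organoids. It had 271 reads in the WT organoids and 136 in the F4KO organoids, a ratio of 0.506 (0.409 to 0.624). In Epi it had 10219 and 6315 reads, a ratio of 0.760 (0.737 to 0.785), lower in the same direction and short of 1.5-fold. The 2 listed Vnn1 transcripts differed in the authors' deposited table of transcripts. In organoids XM_006512718.2 was at -1.39 (FDR 5.2e-12) and NM_011704.3 at -0.38 (FDR 0.17), and in Epi they were at -0.20 and -0.66. Plin2, the coat protein of lipid droplets, was at -0.41 in Epi (FDR 1.24e-09) and 0.10 in organoids (FDR 0.367) in the authors' deposited table. Ucp2, a carrier of the inner mitochondrial membrane, was higher in both comparisons at 0.20 in organoids (FDR 1.13e-17) and 0.36 in Epi (FDR 1.22e-40) in the authors' deposited table. Its Epi value lies 0.02 under the median of all genes, so its Epi direction flips when that median is taken as 0.

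**Figure D3:**
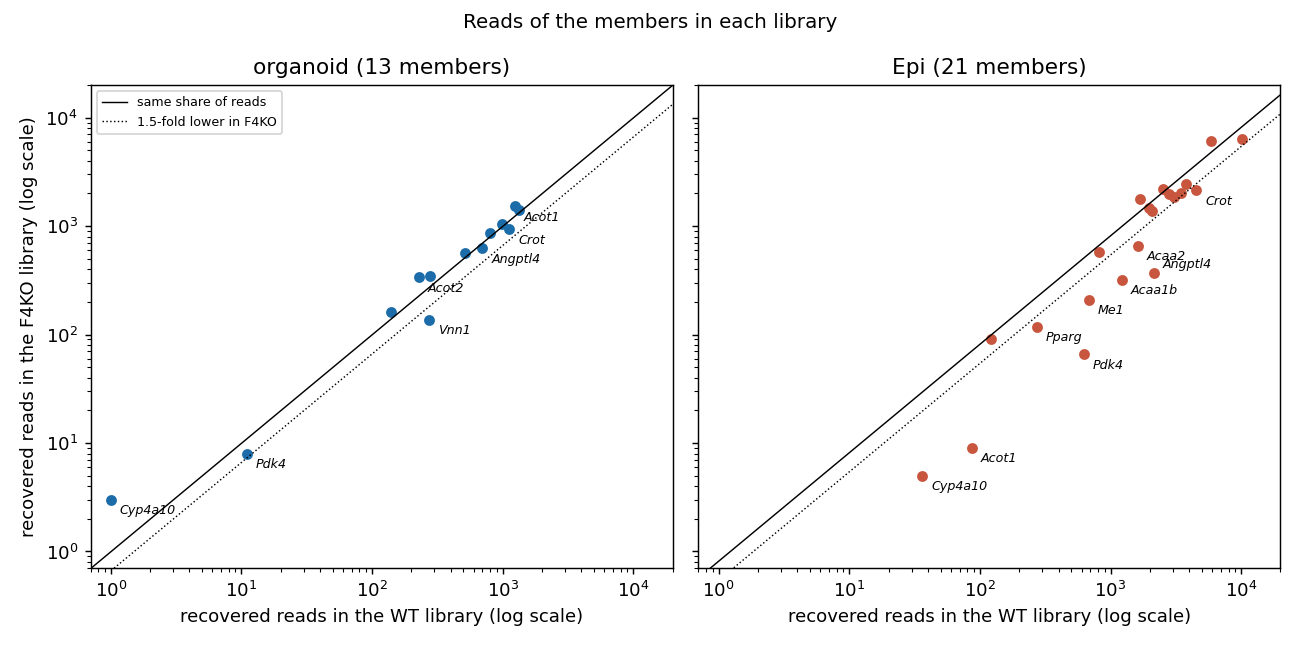
Recovered reads of the members in the F4KO library (vertical, log scale) against the WT library (horizontal, log scale), with 13 members in the organoid panel and 21 in the Epi panel. The solid line is an equal share of reads and the dotted line is 1.5-fold lower in F4KO, below which Pdk4, Acot1, Cyp4a10, Angptl4, Acaa1b, Me1, Acaa2, Pparg and Crot lie in Epi and Vnn1 in organoids.

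In the carnitine shuttle, the peroxisomal and inner-membrane steps were lower in F4KOEpi and the outer-membrane step was not. Cpt1a, the malonyl-CoA-sensitive enzyme that commits fatty acids to mitochondria, had 1685 reads in WTEpi and 1762 in F4KOEpi, a ratio of 1.29 (1.2 to 1.38). Its log2 fold change of 0.36 in the authors' deposited table is 0.02 under the median of all genes, which reverses its sign on that scale, and in organoids it was at 0.21 (FDR 0.0222). Cpt2, which releases the acyl group inside, had 3081 and 1837 reads in Epi, a ratio of 0.734 (0.692 to 0.777), and 1332 and 1412 in the WT and F4KO organoids, a ratio of 1.07 (0.991 to 1.15). Slc25a20, the carnitine-acylcarnitine carrier, had 2060 and 1368 reads in Epi, a ratio of 0.817 (0.762 to 0.875), and 517 and 568 in organoids, a ratio of 1.11 (0.981 to 1.25). In Epi, Cpt1a (higher), Cpt2 and Slc25a20 (lower) passed the FDR and not the fold limit.

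Crot, the carnitine octanoyltransferase that exports shortened chains from peroxisomes, was lower in both comparisons. It had 4515 reads in WTEpi and 2128 in F4KOEpi, a ratio of 0.580 (0.550 to 0.611). In the organoids it had 1123 and 933 reads, a ratio of 0.837 (0.767 to 0.914), and an FDR of 8.01e-04 by the authors' deposited table. Crot was called in Epi, and its organoid difference did not reach 1.5-fold.

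Among the 10 members of mitochondrial beta-oxidation 1 was called lower in Epi and 0 in organoids in the authors' deposited table, beside 2.51% and 0.94% of all genes. The Epi count is 1 gene (10% of the group), too few to set apart from the background. With Epi values centred on the median of all genes, Acaa2, Hadhb, Hadha and Acadm were called lower, beside 6.89% of all genes. Without a fold limit, 4 of the 10 were lower and 0 higher in Epi in the authors' deposited table, beside 7.92% and 30.6% of all genes. The gene called without centring was Acaa2, the thiolase of the last step (gene ID 52538, chromosome 18, 74779212 to 74806207). Acaa2 had 1615 reads in WTEpi and 657 in F4KOEpi, a ratio of 0.50 (0.456 to 0.548). Its log2 fold change was 0.08 in organoids (FDR 0.124) in the authors' deposited table. The other members of this group were within 1.5-fold in Epi by the deposited values, and against the median of all genes Hadha and Hadhb lay at -0.64 and -0.73. Hadhb, the beta subunit of the trifunctional protein, had 3800 and 2423 reads in Epi, a ratio of 0.784 (0.745 to 0.826), and its partner Hadha was at -0.26 in Epi in the authors' deposited table. The dehydrogenase genes for medium, long and very long chains, Acadm, Acadl and Acadvl, were at -0.22, 0.11 and -0.11 in Epi in the authors' deposited table, and of these only Acadm passed the FDR. Acadm had 2816 and 1959 reads in Epi, a ratio of 0.856 (0.807 to 0.907), whereas Acadl had 2509 and 2195, a ratio of 1.08 (1.02 to 1.14). These dehydrogenases thus stood close to an equal share in a comparison where Pdk4 and Angptl4 did not, while against the median of all genes Acadm, Acadl and Acadvl lay at -0.60, -0.27 and -0.49 in the authors' deposited table.

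Etfdh, which passes electrons from the dehydrogenases to ubiquinone, had 1962 and 1455 reads in Epi, a ratio of 0.912 (0.852 to 0.977). Its FDR was 0.0165 by the authors' deposited table, above the limit. The auxiliary enzyme genes for unsaturated chains, Decr1, Eci1 and Eci2, were at 0.04, 0.08 and 0.09 in Epi in the authors' deposited table, where their FDRs were 0.48, 0.363 and 0.188, and at -0.33, -0.30 and -0.29 against the median of all genes. In the organoids the log2 fold changes of all 10 genes lay between -0.20 (Eci2) and 0.09 (Etfdh) in the authors' deposited table, and Eci2 was the member that passed there, with an FDR of 5.73e-04. Hadha and Hadhb were at -0.01 and 0.03 there, and Acadm, Acadl and Acadvl at -0.07, -0.04 and 0.03, in the authors' deposited table. For Decr1 and Eci1 the organoid values were -0.04 and 0.00 in the authors' deposited table.

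The 4 peroxisomal members were all below 0 in Epi and all above 0 in organoids in the authors' deposited table, where 2 passed the FDR as lower in Epi (7.92% of all genes) and 0 passed in organoids (3.09% of all genes higher and 4.7% lower). Acaa1b, a peroxisomal thiolase (gene ID 235674, chromosome 9, 119148043 to 119157093), had 1213 reads in WTEpi and 320 in F4KOEpi, a ratio of 0.325 (0.286 to 0.367). In the organoids it had 140 and 162 reads, a ratio of 1.17 (0.925 to 1.47). There 1 Acaa1b transcript was lower past the FDR limit and 1 higher in the authors' deposited table of transcripts. They were NM_146230.3 at -2.98 (FDR 1.62e-15) and XM_006512114.2 at 1.55. The sister gene of Acaa1b, Acaa1a, on the same chromosome, stood at 0.00 in Epi (FDR 0.94) and 0.11 in organoids (FDR 0.342) in the authors' deposited table. Of the 50-base windows of Acaa1b transcripts, 35.5% also occur in Acaa1a, so part of their reads cannot be placed with certainty. Ehhadh, the bifunctional hydratase and dehydrogenase, had 3469 and 2030 reads in Epi, a ratio of 0.720 (0.681 to 0.761), and 991 and 1043 in organoids, a ratio of 1.06 (0.972 to 1.16). Pex11a, a peroxisome division factor, was at -0.06 in Epi and 0.10 in organoids in the authors' deposited table and passed in neither as a gene. Its organoid transcripts were at 2.65 (XM_011250824.2, FDR 3.83e-06) and -0.05 (NM_011068.2, FDR 0.81) in the authors' deposited table of transcripts.

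Cyp4a10, an omega-hydroxylase of fatty acids (gene ID 13117, chromosome 4, 115518287 to 115533649), had 36 reads in WTEpi and 5 in F4KOEpi, a ratio of 0.171 (0.0523 to 0.437). The organoid libraries had 1 and 3 reads, and the interval of their ratio ran from 0.243 to 159. A difference was thus not detectable in organoids, although the log2 fold change in the authors' deposited table is 1.17, the highest of the set. In all, 29.8% of its 50-base windows occur in related Cyp4a genes.

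The acyl-CoA thioesterase genes were above 0 in organoids and below 0 in Epi in the authors' deposited table, and Acot1 passed the FDR limit in both. Acot1, the cytosolic enzyme (gene ID 26897, chromosome 12, 84009502 to 84017670), had 87 reads in WTEpi and 9 in F4KOEpi, a ratio of 0.127 (0.0563 to 0.253), the lowest log2 fold change of the set at -2.95 in the authors' deposited table. The organoids had 1236 WT and 1526 F4KO reads, a ratio of 1.24 (1.15 to 1.34), to which the authors' deposited table gives an FDR of 2.82e-07. Acot1 was thus much better covered in organoids than in Epi. Acot2, the mitochondrial enzyme next to it on chromosome 12, had 228 reads in the WT organoids and 338 in the F4KO organoids, a ratio of 1.49 (1.26 to 1.78). Its log2 fold change of 0.58 in the authors' deposited table, with an FDR of 4.28e-05, lay just under 1.5-fold. In Epi Acot2 had 122 and 90 reads, a ratio of 0.908 (0.683 to 1.2), a difference within counting error. Of the 50-base windows of Acot1, 23.5% also occur in Acot2, so the split of reads between these genes is uncertain.

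Set side by side, the comparisons agreed in sign for 10 of 31 members in the authors' deposited table, with 2 above 0 and 8 below 0 in both. A further 16 were above 0 in organoids and below 0 in Epi, and 5 were the other way round. Of all genes, 7260 of 15845 were above 0 in organoids and 11708 of 16336 in Epi. The shares of all genes with each pair of signs, or past the FDR limit in both comparisons, were not worked out. In organoids 27 of the 31 members differed by less than 1.25-fold and 25 did not pass the FDR limit, so most organoid signs rest on small differences. The FDR limit was passed in both comparisons by 4 members in the authors' deposited table. Of these, Vnn1, Crot and Ucp2 had the same sign and Acot1 had opposite signs. Whether genotype acts differently in the 2 comparisons was not tested, since each has 1 library per genotype.

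The wider pathway, a list of 109 further genes of PPAR signalling, fatty acid activation, peroxisomes and lipid droplets, was described in the same way. In the organoids 0 of its 105 genes with a fold change were called in either direction in the authors' deposited table, beside 0.271% of all genes higher and 0.94% lower, which is near the background, with a median log2 fold change of 0.03. In Epi 17 of 103 (16.5%) were called lower and 8 (7.77%) higher in the authors' deposited table, beside 2.51% and 20% of all genes, with a median of -0.13. Acox2, a peroxisomal oxidase of branched chains, had 370 reads in WTEpi and 73 in F4KOEpi, a ratio of 0.243 (0.186 to 0.313), and 536 and 802 in the WT and F4KO organoids, a ratio of 1.51 (1.35 to 1.69). For Acox2 the recovered reads thus give a fold just past 1.5 in organoids, where its log2 fold change of 0.58 in the authors' deposited table was just short of it. Acot12, a thioesterase for acetyl-CoA, had 3196 and 744 reads in Epi, a ratio of 0.286 (0.264 to 0.310).

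Lipid droplet, retinoid and glycerol genes were among the 10 largest differences of those genes of the wider list that were called in Epi. Cidec, a lipid droplet protein, had 2698 reads in WTEpi and 863 in F4KOEpi, a ratio of 0.394 (0.364 to 0.425). Retsat, which encodes retinol saturase, had 3288 and 1115 reads, a ratio of 0.417 (0.389 to 0.447). The aquaglyceroporin genes Aqp3 and Aqp7 were at -1.45 (FDR 5.25e-105) and -1.22 (FDR 3.2e-09) in Epi in the authors' deposited table, and the liver-type fatty acid binding protein gene Fabp1 was at -1.16 with an FDR listed as 0. Slc27a1, a fatty acid transport protein, and Pank1, a pantothenate kinase of coenzyme A synthesis, were higher. Slc27a1 had 76 and 154 reads in Epi, a ratio of 2.49 (1.88 to 3.33), and Pank1 had 72 and 142, a ratio of 2.43 (1.81 to 3.27).

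**Figure D4:**
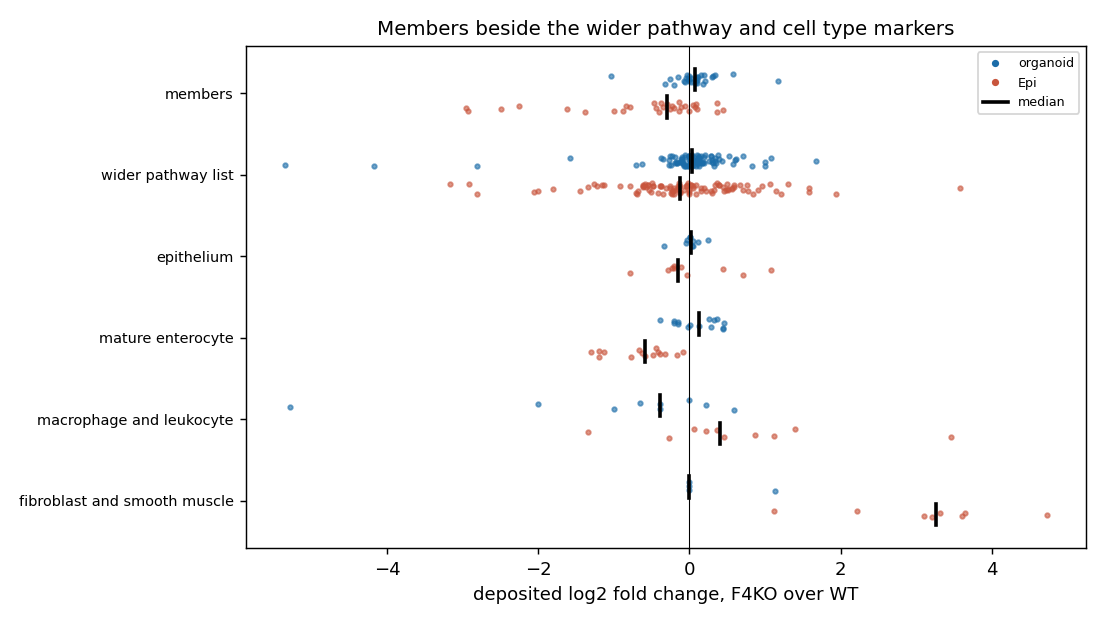
Deposited log2 fold changes (horizontal axis) of the members, the wider pathway list and marker lists, each point 1 gene and each black bar the list median, organoid above Epi within each list. In Epi the medians are -0.29 for members, -0.13 for the wider list, -0.59 for mature enterocytes and 3.27 for fibroblasts and smooth muscle.

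Markers of mature enterocytes and of fibroblasts and smooth muscle differed along with the members in Epi. The deposited p-values of all 10 epithelial markers, among them Epcam and Vil1, fit no total under 100 reads over both libraries in either comparison. In Epi 3 of them were higher and 7 lower past the FDR limit in the authors' deposited table. Krt19 (1.08) and Cdx1 (0.71) were called higher there and Krt20 (-0.79) lower, where 20% and 2.51% of all genes were. Of 15 markers of mature enterocytes, 15 were lower in F4KOEpi and past the FDR limit in the authors' deposited table, 8 of them called (2.51% of all genes were called lower), with values from -1.30 (Apoa4) to -0.09 (Anpep) and a median of -0.59. In the organoids 5 were higher and 3 lower by that limit in the authors' deposited table, with a median of 0.13. All 8 fibroblast and smooth muscle markers were above 0 in Epi in the authors' deposited table, as were 11708 of all 16336 genes, and 6 of them were called higher (20% of all genes), with values from 1.12 (Col1a2) to 4.74 (Acta2). The p-value of each of these 8 fits a total under 100 reads, and in organoids Col3a1, Dcn, Lum and Myh11 had no value and the other 4 fit totals under 20 reads. Of 10 macrophage and leukocyte markers, 2 (Cd14 and Itgam) were called higher in Epi in the authors' deposited table, with a list median of 0.41, which is the share (20%) and close to the median (0.38) of all genes. The haemoglobin genes Hba-a1, Hba-a2 and Hbb-bs were called lower in Epi, at -2.57, -3.44 and -2.78 in the authors' deposited table. Hbb-bt, at -0.98 (FDR 0.0727), and the endothelial markers Pecam1, Cdh5 and Kdr, at -0.50, 1.0 and 2.58, did not pass there. Of 8 adipocyte markers, Adipoq, Plin1, Lep and Retn had no value in either comparison. Lipe was at 0.24 in organoids (FDR 0.319) and -0.24 in Epi (FDR 2.12e-09) in the authors' deposited table. Cfd and Adig fit totals under 20 reads and passed in neither comparison, at 3.17 and -3.17 in Epi. Cidea had no value in Epi and did not pass in organoids. The part of these cells in the result was not tested, and in bulk RNA fewer cells of a type and less RNA per cell cannot be told apart. As a list, the members lay less far down in Epi than the 15 enterocyte markers in the authors' deposited table. Their median was -0.29 against -0.59, and 32.3% against 53.3% were called lower. Lower than every one of these markers were 6 members (Acot1, Pdk4, Cyp4a10, Angptl4, Acaa1b and Me1). The share of all genes that lay so low was not worked out.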

How the data were processed

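Per the labels' protocols, 1.5 µg of total RNA went into each SMARTER library. The deposited log2 fold changes, p-values and FDR values were made by the authors, and per the file headers the test is a Poisson one. The submitters' processing notes name GRCm38 and mm10, and no aligner or counting tool is given in the sources used here. Without replicates no test of genotype was made. The deposited p-values match the two-sided Audic-Claverie test of 2 whole read numbers, which gave the ratio of library totals. Pairs of up to 20000 WT reads were matched to each p-value at 6 significant digits and to the deposited fold change within 0.1 log2 beyond rounding. A pair was kept where 60 p-values shifted in steps of 0.03% gave no match as good, and, above 400 reads with a p-value over 1e-06, where its ratio equalled the deposited one within 0.001. Of shifted p-values, 0 of 310 (organoid) and 5 of 300 (Epi, 1.67%) were accepted. The 5 fell on Cpt2, Acadm, Ehhadh, Hadhb and Ucp2 in Epi, with 1 of 10 accepted for each. Recovered Epi reads of these members are therefore less certain than those of the others. For 3 members in organoids (Acaa1a, Cpt2, Ehhadh) and 2 in Epi (Acadl, Etfdh), as for Pdk4 in organoids, several pairs fit and the best was kept. Reads per deposited level should give 1 ratio of the WT totals over both comparisons. That ratio was taken as the value most shared among 11 members, so their agreement with it is no independent check. Of the 11, 4 lay within 1% of it. Within 2% lay 8 when levels could be multiplied or divided by a whole number, and the rest did not. The search was tested on simulated data. Total depth is unknown. All 32 members are named, and genes of the wider list were named as the 10 largest called in each comparison, 1 of which is not reported here. Members and lists were chosen with earlier results of these data known. Python 3.11.15, scipy 1.17.1 and pandas 2.3.3 were used. Fold and FDR limits, read minimums, centring, transcripts, read ratios and gene copies were varied. Gene and promoter positions are from RefSeq, and windows shared between copies from GENCODE transcripts.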

Additional observations from a re-analysis of the deposited data

Results flagged for a closer look

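Acot1 was the member with a deposited FDR of 0.001 or less in both comparisons and opposite signs, at 0.32 in organoids and -2.95 in Epi on the log2 scale of the authors' deposited table. The difference between the comparisons was not tested, because each has 1 library per genotype.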

How the results depend on the processing

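Without a fold limit, at a deposited FDR of 0.001 or less, 3 members were higher and 3 lower in organoids, and 3 were higher and 18 lower in Epi, where 3.09%, 4.7%, 30.6% and 7.92% of all genes were. With a fold limit of 2, 6 members were lower in Epi, beside 0.979% of all genes. When Epi fold changes were centred on the median of all genes, 18 members were lower, beside 6.89% of all genes. An FDR limit of 0.05 and leaving out the members with near-identical copies (then 7 lower in Epi) kept each count within 1.5 times the reported one. The Epi median of the members ran from -0.67 (centred) to -0.26 (members with at least 100 reads), and the organoid median from 0.01 (without the copies) to 0.11 (recovered read ratios). When the transcript with the smallest p-value was used, some differences that were not called changed sign. In organoids these were Eci2 (-0.20 to 8.39), Acaa1a (0.11 to -7.59), Acaa1b (0.30 to -2.98) and Me1 (-0.01 to 0.17). In Epi it was Acaa1a (-0.0007 to 8.29). Of these, Eci2 had passed the FDR limit at gene level. No member called at 1.5-fold changed sign in the comparison where it was called. For members with 1 listed transcript this is no separate check. Centring and the read ratios could not show such a change. The median of all genes was 0.00 in organoids and above 0 in Epi, where every called member was lower. Read pairs were kept only where they lay close to the deposited fold change, and reads of Creb3l3 in Epi were not recovered. No paired analysis was possible because each genotype had 1 library. Depth limits Cyp4a10 in organoids, the organoid depth of Pdk4 is uncertain, and the FDR limit favours genes with many reads. Which tissue the Epi libraries held could not be checked against labels.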

Other observations

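Transcripts of Pparg differed among themselves in the authors' deposited table of transcripts. In organoids, of 6 transcripts with a fold change, with a deposited FDR of 0.001 or less 1 was higher (log2 fold change 1.09) and 1 lower (-1.61), while the gene stood at -0.06. In Epi 3 of 6 were lower at that FDR and 0 higher. For Cpt1a in organoids, 1 of 5 transcripts was higher at 1.18 (FDR 3.28e-37) and 2 were lower in the authors' deposited table of transcripts, while the gene stood at 0.21. Reads shared by transcripts of 1 gene cannot be placed with certainty, and 15 of the 31 members have several listed transcripts.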
